A study of Mus musculus with 6 samples.

Results

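The genes described here are the 36 aminoacyl-tRNA synthetase genes of the mouse that were taken by symbol, 20 for cytosolic enzymes and 16 for mitochondrial enzymes, out of 30803 gene rows per library. They were chosen by name and function and not by their values. All 36 were found, 35 under the listed symbol and Mars as the row Mars1, a synonym in RefSeq. The libraries are poly(A) RNA-seq of hematopoietic stem cells (HSCs, as the labels call them), sorted from the bone marrow of wild-type (WT) mice at 5 months of age into MHCII-hi and MHCII-lo cells, the latter with little MHC class II on their surface. Each group has 3 libraries (n = 3 per group throughout), all 6 titles carry the label Ctrl, which the sources used here do not explain, and no treatment or altered allele is named in either group. The sources used here do not name the markers of the sort. Separate animals are not stated for the libraries of a group, so p-values measure only the spread between these libraries.

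Aminoacyl-tRNA synthetases join each amino acid to its tRNA, the step that sets the genetic code during translation. In animals a nuclear gene serves the cytosol and, for most amino acids, another nuclear gene, usually named with a final 2, serves protein synthesis in mitochondria. Some of the cytosolic enzymes are held in a multisynthetase complex by the scaffold proteins AIMP1, AIMP2 and AIMP3 (Eef1e1). When amino acids run short, uncharged tRNA activates the kinase GCN2, translation of the transcription factor ATF4 rises, and ATF4 can induce many cytosolic synthetase genes through short promoter elements. HSCs are known for a low rate of protein synthesis compared with the progenitors they form.

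The promoter sequences that bear on this wiring are shown first, because the cytosolic genes differ in whether they hold an ATF4-type element. The C/EBP-ATF response element was searched as TGATGNAAN on both strands, from 250 bases before to 50 bases after each RefSeq transcript start (build GRCm38.p6), where overlapping matches were all kept. The letters occurred in 1299 of 32851 promoters, or 3.95%. They occurred in 5 of the 13 cytosolic synthetase genes with a promoter entry, among them Gars, Iars, Tars and Yars, and in 0 of 14 mitochondrial ones. Capitals mark the match, each sequence runs 5′ to 3′ on the gene's strand, and positions count from the start, with -1 as the last base before it. Gars and Tars are shown with the 120 bases before the start, and Iars and Yars with 10 bases on each side of the match, which in these genes lies in an annotated exon. Asns and Slc7a11, textbook ATF4 targets of amino acid metabolism, are shown for comparison.
Gars (glycyl-tRNA synthetase), chr6:55037881-55038000, plus strand: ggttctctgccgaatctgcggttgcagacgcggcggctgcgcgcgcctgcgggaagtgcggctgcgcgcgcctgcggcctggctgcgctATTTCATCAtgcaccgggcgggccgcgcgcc
Tars (threonyl-tRNA synthetase), chr15:11399659-11399778, minus strand: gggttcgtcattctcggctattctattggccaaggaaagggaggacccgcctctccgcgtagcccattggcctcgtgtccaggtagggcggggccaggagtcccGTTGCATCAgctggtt
Iars (isoleucyl-tRNA synthetase), chr13:49682126-49682154, plus strand: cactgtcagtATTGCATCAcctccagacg
Yars (tyrosyl-tRNA synthetase), chr4:129189896-129189924, plus strand: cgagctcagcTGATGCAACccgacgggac
Asns (asparagine synthetase), chr6:7693214-7693242, minus strand: cccagccacaTGATGAAACttcccgcacg
Slc7a11 (cystine transporter), chr3:50443614-50443733, minus strand: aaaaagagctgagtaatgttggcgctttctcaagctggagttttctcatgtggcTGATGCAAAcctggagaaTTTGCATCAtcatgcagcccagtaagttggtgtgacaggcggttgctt
The match stood on the strand opposite to the gene in Gars (positions -31 to -23), Tars (-16 to -8) and Iars (7 to 15), and on the gene's strand in Yars (4 to 12) and Asns (-23 to -15). Slc7a11 held a match on each strand. Letters alone do not show that a factor binds there, and the motif was chosen with the data known. The E-box CACGTG, a palindrome bound by MYC-type factors, occurred in Iars, Aars, Farsb and Tars, or 4 of 13 cytosolic promoters, in Ears2 alone of 14 mitochondrial ones, and in 7.15% of all promoters. Lars, Rars, Cars, Hars, Nars, Vars, Wars, Hars2 and Pars2 had no promoter entry.

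Synthetase transcripts were lower in MHCII-hi than in MHCII-lo cells. Values are FPKM, fragments corrected for transcript length and library size, so that levels of different genes can be compared. The change is the difference of mean log2(FPKM + 1), MHCII-hi minus MHCII-lo, which understates the change of genes near 1 FPKM. In limma, fitted on the 12295 genes that averaged 1 FPKM or more, 30 of the 36 genes were lower at an adjusted p under 0.05, 0 were higher and 6 did not pass. Of all tested genes 40.5% were lower and 27.2% higher, against 83.3% and 0 of 36 for the synthetases, and none of the 36 was higher at an unadjusted p under 0.05 either. Sars2 was called higher with libraries scaled to equal totals without immunoglobulin and mitochondrial transcripts (0.16, adjusted p = 0.0497) and with each library corrected for gene length and GC (0.20, adjusted p = 0.0180). Every MHCII-hi library lay below every MHCII-lo library in the 30 lower genes, or 83.3% of the 36, and in 43.3% of all tested genes. Of the 4982 tested genes called lower, 4942 had this pattern, so it adds little to the call. The mean FPKM in MHCII-hi was at most 0.8 of that in MHCII-lo for 21 synthetase genes (58.3%) and for 30.3% of all tested genes.

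The shift was small for most members and was larger than the median of the tested genes. The median change of the 36 genes was -0.31 on the log2 scale, while that of all 12295 tested genes was -0.08. Among the 6606 tested genes with a mean of 5 to 50 FPKM, a range that holds 26 of the synthetases, the median was -0.11, 47.6% were lower and 30.9% had a ratio of at most 0.8. All 36 members passed the minimum of 1 FPKM. Nars2 passed only through MHCII-lo, with a mean of 0.73 FPKM in MHCII-hi, so its place in the counts rests on the group where it was high. In sorted bulk cells fewer cells of a type and less RNA per cell cannot be told apart.

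**Figure D1:**
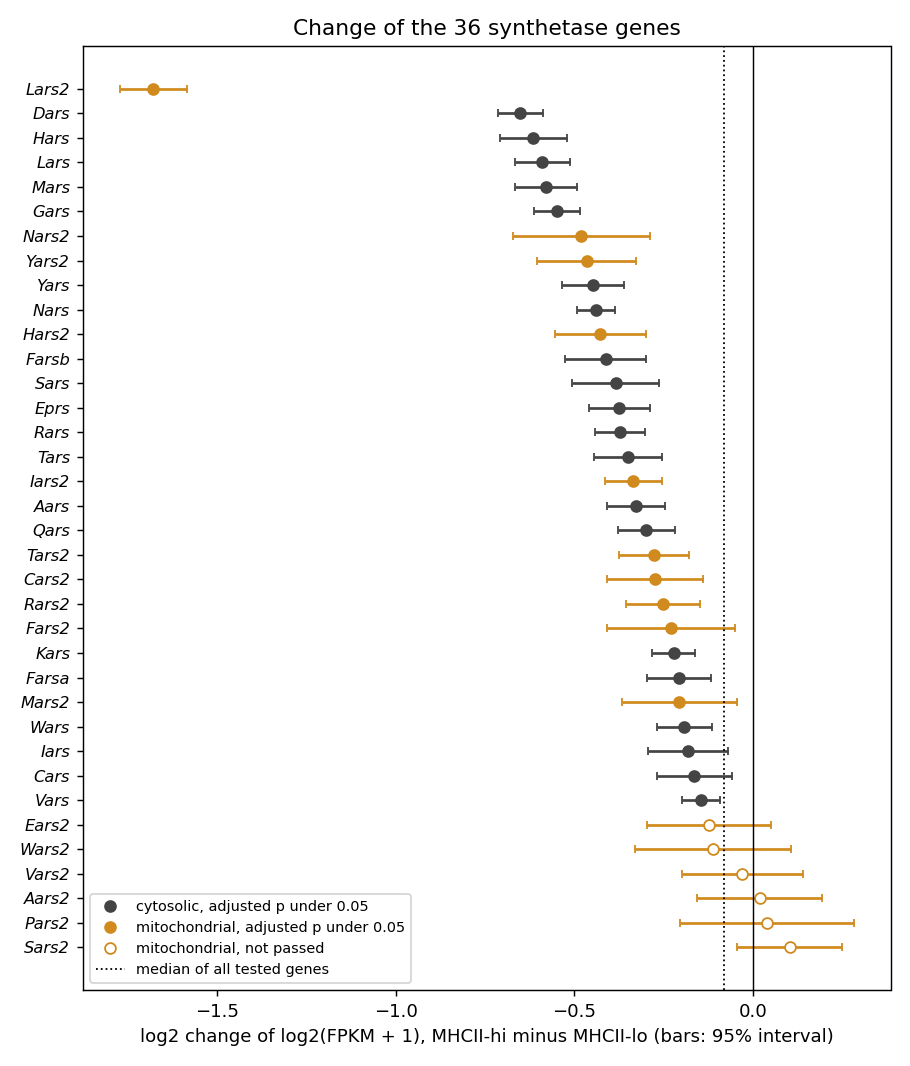
Change of each of the 36 synthetase genes (log2 change of log2(FPKM + 1), MHCII-hi minus MHCII-lo, horizontal axis), with 95% limma intervals, 3 libraries per group. Filled points passed an adjusted p under 0.05 and open points did not. All 20 cytosolic genes lie left of 0, Lars2 lies far to the left at -1.68, and the 6 open points are all mitochondrial.

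The cytosolic enzymes moved together. All 20 were lower, with a median change of -0.37 and a range from -0.65 (Dars) to -0.15 (Vars). An MHCII-hi mean of at most 0.8 of the MHCII-lo mean was reached by 13 of them (65%). Among all tested genes with a mean of 5 to 50 FPKM, 47.6% were lower and 30.9% reached that ratio. The FPKM of the 20 cytosolic genes summed to 455.56, 457.57 and 456.38 in the MHCII-lo libraries and to 340.45, 340.14 and 347.50 in the MHCII-hi libraries. The groups do not overlap, and the sum fell from 456.5 ± 1.01 (SD) to 342.7 ± 4.16, a ratio of 0.751. Per length, the median cytosolic gene went from 19.2 to 14.4 FPKM.

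**Figure D2:**
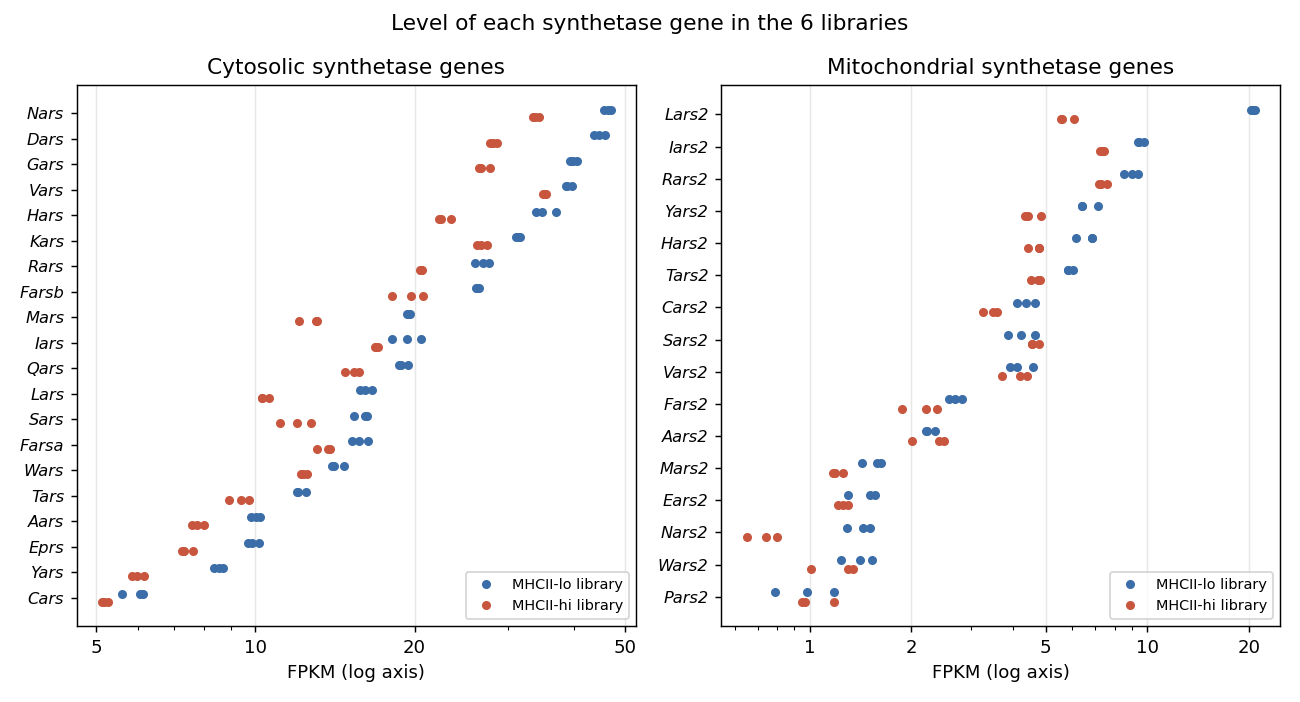
FPKM of each synthetase gene on a log axis in the 3 MHCII-lo (blue) and 3 MHCII-hi (red) libraries, cytosolic genes on the left and mitochondrial genes on the right, each panel ordered by the MHCII-lo mean. Every red point of the 20 cytosolic genes lies left of that gene's blue points. Lars2 shows the widest gap, 20.6 against 5.74 FPKM on average.

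Dars, the aspartyl-tRNA synthetase of the multisynthetase complex (GRCm38 chromosome 1, 128363707 to 128417368, minus strand), had the largest cytosolic decrease. It had 44.73, 43.71 and 45.95 FPKM in the MHCII-lo libraries and 28.59, 28.15 and 27.74 FPKM in the MHCII-hi libraries. Both groups were tight and far apart, and Dars fell by 37.1% (log2 change -0.65, SE 0.03, adjusted p = 1.99e-06 in limma). With the length and GC trend removed the change of Dars was -0.36, smaller than those of Hars, Lars, Mars and Gars, so its rank holds only without that correction.

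Hars, which charges tRNA with histidine and is not held in the complex, had 37.05, 33.94 and 34.88 FPKM in the MHCII-lo libraries and 22.40, 22.20 and 23.43 FPKM in the MHCII-hi libraries. Its lowest MHCII-lo library lay well above its highest MHCII-hi library (log2 change -0.62, SE 0.04, adjusted p = 1.54e-05 in limma). Lars, the cytosolic leucyl-tRNA synthetase, which is also known as a leucine sensor for mTORC1, had 16.12, 16.60 and 15.76 FPKM in the MHCII-lo libraries and 10.30, 10.62 and 10.28 FPKM in the MHCII-hi libraries. Again no libraries overlapped (log2 change -0.59, SE 0.03, adjusted p = 7.30e-06).

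Mars, the methionyl-tRNA synthetase, whose charged tRNA also starts translation (chromosome 10, 127296221 to 127311786, minus strand), had 19.36, 19.63 and 19.53 FPKM in the MHCII-lo libraries and 13.03, 12.09 and 13.09 FPKM in the MHCII-hi libraries. The 3 MHCII-hi libraries were all lower, by 0.58 on the log2 scale on average (log2 change -0.58, SE 0.04, adjusted p = 1.45e-05 in limma). Mars overlaps Ddit3, a stress gene on the opposite strand, by 68 bases. The pair moved in opposite directions, since Ddit3 had 8.10, 7.67 and 8.43 FPKM in the MHCII-lo libraries and 10.28, 11.20 and 11.40 FPKM in the MHCII-hi libraries.

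Gars, Kars and Qars have no separate mitochondrial gene among the 36. Gars and Kars each make the enzyme of both compartments, for glycine and lysine, and mitochondria obtain glutaminyl-tRNA by another route. Gars had 39.33, 40.50 and 39.87 FPKM in the MHCII-lo libraries and 26.46, 26.68 and 27.76 FPKM in the MHCII-hi libraries (log2 change -0.55, SE 0.03, adjusted p = 4.62e-06 in limma). Kars had 31.41, 31.71 and 31.15 FPKM in the MHCII-lo libraries and 26.29, 26.71 and 27.42 FPKM in the MHCII-hi libraries, a smaller decrease than that of Gars (-0.22, adjusted p = 2.46e-04). Qars, the glutaminyl-tRNA synthetase, had 18.65, 19.47 and 18.89 FPKM in the MHCII-lo libraries and 15.35, 14.76 and 15.69 FPKM in the MHCII-hi libraries (-0.30, adjusted p = 2.28e-04). The change of Kars was -0.094 with the length and GC trend removed. All 3 genes kept their groups apart in every library, while the difference in size between them was not tested.

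Eprs encodes a fused enzyme for glutamate and proline. It had 10.15, 9.69 and 9.85 FPKM in the MHCII-lo libraries and 7.34, 7.62 and 7.27 FPKM in the MHCII-hi libraries (log2 change -0.37, adjusted p = 0.000101 in limma). Wars, the tryptophanyl-tRNA synthetase, is known to be induced by interferon. It had 14.05, 14.73 and 13.97 FPKM in the MHCII-lo libraries and 12.32, 12.22 and 12.51 FPKM in the MHCII-hi libraries, so it too was lower in every MHCII-hi library, by a smaller amount (-0.19, adjusted p = 0.00165, and -0.12 with equal totals).

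The remaining cytosolic genes were Nars (-0.44), Yars (-0.45), Farsb (-0.41), Sars (-0.38), Rars (-0.37), Tars (-0.35), Aars (-0.33), Farsa (-0.21), Iars (-0.18), Cars (-0.16) and Vars (-0.15), all lower at the threshold. The phenylalanyl-tRNA synthetase is built from the subunits of Farsa and Farsb, and the decrease of its beta subunit gene was the larger by value. Iars and Cars were the cytosolic genes nearest to the threshold, with adjusted p = 0.0120 and 0.0137 in limma. Both lost the call with equal totals (0.0763 and 0.0780), Iars also with quantile normalization (0.0523) and Cars without MHCII-lo replicate 3 (0.0530). Vars, the valyl-tRNA synthetase, had the smallest cytosolic change, from 39.1 to 35.2 FPKM, and became the most abundant synthetase transcript of MHCII-hi. In MHCII-lo the most abundant were Nars (46.4 FPKM), which charges asparagine, and Dars (44.8 FPKM), whose libraries overlap. In MHCII-hi the order was Vars, Nars (34.0 FPKM) and Dars (28.2 FPKM), with Dars, Gars and Kars overlapping as neighbours. Cars, for cysteine, was the lowest cytosolic gene in both groups, at 5.93 and 5.18 FPKM. Of the 19 steps in the cytosolic order, 8 in MHCII-lo and 7 in MHCII-hi separate genes whose libraries overlap.

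The cytosolic enzymes fall into known groups. The 8 genes of the multisynthetase complex and the 12 for enzymes outside it were all lower, and both groups had a median change of -0.37. A ratio of at most 0.8 was reached by 5 of 8 and by 8 of 12. Among all tested genes with a mean of 5 to 50 FPKM, 47.6% were lower and 30.9% reached that ratio. By structural class of the catalytic domain, the median was -0.34 over the 10 cytosolic class I genes and -0.40 over the 10 of class II, with 5 and 8 genes at a ratio of at most 0.8. The fused Eprs was counted in class I only, although its proline part belongs to class II. The 5 cytosolic genes with the ATF4-type match had a median change of -0.35 (from -0.55 to -0.18), and the 8 with a promoter entry and no match had -0.38 (from -0.65 to -0.21). These ranges overlap, and the differences were not tested.

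The mitochondrial enzymes were mixed. Of 16 genes, 10 were lower (62.5%, or 60% without Lars2, against 40.5% of all tested genes) and 6 did not pass, with a median change of -0.24. With a minimum of 5 FPKM only 6 mitochondrial genes were tested, Lars2 among them. Their median was -0.38, near the -0.37 of the cytosolic genes, so the lower median of the cytosolic genes depends on the scarce mitochondrial ones. The difference between the compartments was not tested. Lars2, the mitochondrial leucyl-tRNA synthetase (chromosome 9, 123366927 to 123462666, plus strand), stood apart. It had 20.27, 20.88 and 20.55 FPKM in the MHCII-lo libraries and 5.58, 6.07 and 5.56 FPKM in the MHCII-hi libraries. Its mean fell by 72.1%, from 20.6 ± 0.305 (SD) to 5.74 ± 0.289 (log2 change -1.68, SE 0.04, adjusted p = 1.92e-07 in limma). It ranked 9 of 12295 tested genes by the size of the decrease. Lars2 was the most abundant mitochondrial synthetase transcript in MHCII-lo, above Iars2 (9.54 FPKM), and lay below Rars2 (7.37 FPKM) and Iars2 (7.35 FPKM) in MHCII-hi.

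Lars2 is known to hold a stretch resembling ribosomal RNA, so reads from other RNA can be placed there. Of its 4527 transcript words of 31 bases, 26 were shared with AA474408 and 22 with Gm15564, both noncoding annotations. The mean of AA474408 was 0.433 FPKM for MHCII-lo and 0.343 for MHCII-hi, and Gm15564 was listed at 0.0333 FPKM and at 0. The mitochondrial ribosomal RNAs were higher in MHCII-hi, with mt-Rnr1 at 169.9 and 239.1 FPKM (log2 change 0.49) and mt-Rnr2 at 171.3 and 253.0 FPKM (0.56). Neither shared a word of 31 bases with Lars2, so their direction does not tell whether reads were misplaced in Lars2. The share of Lars2 fragments that came from such sequence was not tested, because the deposited values do not place reads within the gene. Without Lars2 the mitochondrial genes had 9 of 15 lower and a median of -0.23. Their summed FPKM fell from 82.8 ± 3.04 (SD) to 56.4 ± 1.14 with Lars2, a ratio of 0.681, and from 62.2 ± 2.83 to 50.7 ± 0.908 without it, a ratio of 0.815.

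Nars2 and Yars2 had the next largest mitochondrial decreases. Nars2, for asparagine, was scarce, with 1.29, 1.44 and 1.51 FPKM in the MHCII-lo libraries and 0.80, 0.65 and 0.74 FPKM in the MHCII-hi libraries (log2 change -0.48, adjusted p = 0.00161 in limma, and -0.95 with a pseudocount of 0.01). Yars2, for tyrosine, had 6.40, 6.39 and 7.16 FPKM in the MHCII-lo libraries and 4.35, 4.83 and 4.44 FPKM in the MHCII-hi libraries (-0.47, adjusted p = 3.95e-04). In both genes the groups were separate. The others that passed were Hars2 (-0.43), Iars2 (-0.33), Tars2 (-0.28), Cars2 (-0.27), Rars2 (-0.25), Fars2 (-0.23) and Mars2 (-0.21). Fars2 and Mars2 lay closest to the threshold, each at an adjusted p of 0.0306, and both lost the call without MHCII-lo replicate 2 or 3 or MHCII-hi replicate 1 or 3 (adjusted p from 0.0547 to 0.0981 for Fars2 and from 0.0665 to 0.106 for Mars2). Rars2 was at -0.02 with the length and GC trend removed.

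The 6 mitochondrial genes that did not pass had overlapping groups. Vars2, for valine, had 3.93, 4.10 and 4.58 FPKM in the MHCII-lo libraries and 3.72, 4.39 and 4.19 FPKM in the MHCII-hi libraries, a change of -0.03 with a 95% interval from -0.20 to 0.14. Aars2, for alanine, had 2.21, 2.22 and 2.35 FPKM and 2.01, 2.50 and 2.42 FPKM, a change of 0.02 (interval -0.16 to 0.19). Pars2, for proline, had 0.79, 1.18 and 0.98 FPKM and 0.97, 0.95 and 1.18 FPKM, a change of 0.04 (interval -0.21 to 0.28). With a library left out the change ranged from -0.070 to 0.026 for Vars2, from -0.023 to 0.086 for Aars2 and from -0.033 to 0.11 for Pars2. Ears2 (-0.12, interval -0.30 to 0.05), Wars2 (-0.11, -0.33 to 0.11) and Sars2 (0.10, -0.04 to 0.25) also missed the threshold. Ears2 was called lower with quantile normalization (-0.20, adjusted p = 0.0475) and with the length and GC trend removed (-0.20, adjusted p = 0.0438). Wars2 was at -0.043 without MHCII-hi replicate 1 and at -0.071 without MHCII-lo replicate 3. Sars2 was at 0.052 without MHCII-lo replicate 1 and at 0.16 without MHCII-lo replicate 3. Each interval includes both no change and a decrease or increase of some size, so a p above the threshold does not show that the levels were equal.

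Setting the cytosolic and mitochondrial enzymes for the same amino acid side by side gave 17 pairs, with Fars2 paired to both Farsa and Farsb and the fused Eprs to both Ears2 and Pars2. The cytosolic gene had the more negative change in 11 pairs and the mitochondrial gene in 6. The widest gaps with the larger cytosolic decrease were those of serine (Sars minus Sars2, -0.49), proline (Eprs minus Pars2, -0.41), methionine (Mars minus Mars2, -0.37) and alanine (Aars minus Aars2, -0.35). The leucine pair went the other way by 1.09. Gap sizes and their order hold only for log2(FPKM + 1), which understates the change of partners near 1 FPKM. With a pseudocount of 0.01, Mars2 moved from -0.21 to -0.35 and Nars2 from -0.48 to -0.95. Aars2 (0.026) and Pars2 (0.083) stayed above 0 at that setting. Nars minus Nars2 was only 0.04 on the scale used here. The Lars to Lars2 ratio of FPKM was 0.786 ± 0.0163 (SD) in MHCII-lo and 1.81 ± 0.0565 in MHCII-hi, so the order of the pair turned over. In the other 16 pairs the cytosolic transcript was the more abundant in both groups, up to a ratio of 33.0 ± 3.14 for Nars to Nars2 in MHCII-lo and 46.9 ± 5.08 in MHCII-hi. These differences within pairs are descriptions and were not tested.

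**Figure D3:**
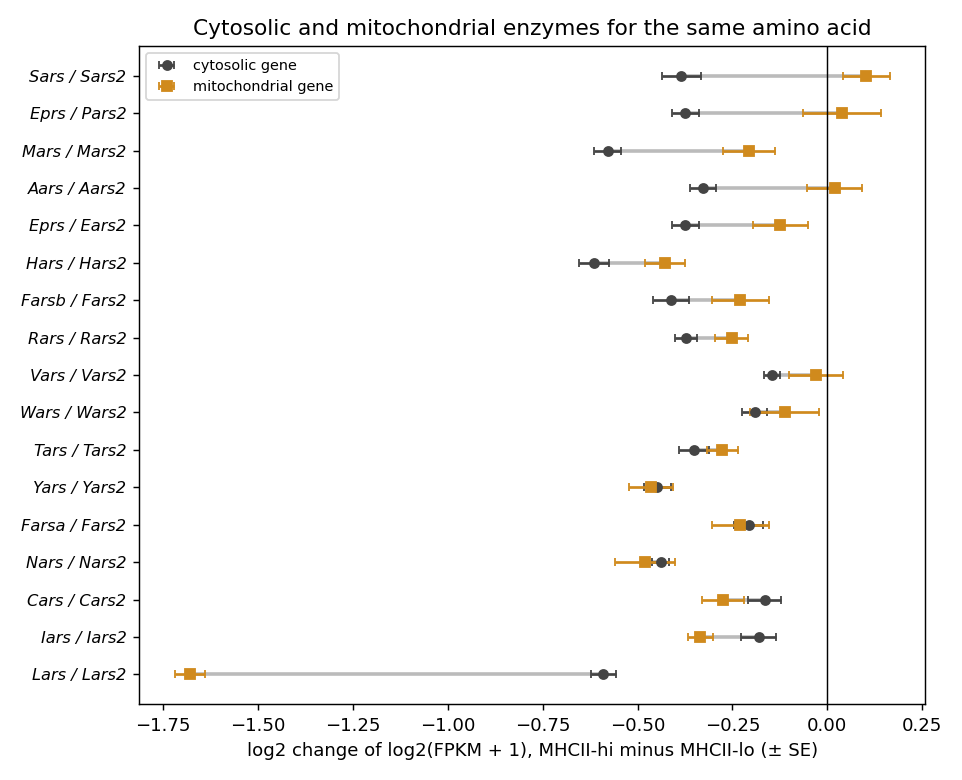
Log2 change of log2(FPKM + 1), MHCII-hi minus MHCII-lo, for the cytosolic (dark circles) and mitochondrial (orange squares) synthetase genes of the same amino acid, with limma SE bars, ordered from the pair whose cytosolic gene fell more to the pair whose mitochondrial gene fell more. Circles lie left of squares in 11 of 17 pairs, and the leucine pair at the bottom has the widest gap.

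Other genes of tRNA charging were examined next. Of the 3 scaffold genes of the multisynthetase complex, 2 were lower and 1 higher. Eef1e1 (AIMP3) had 9.17, 8.72 and 8.38 FPKM in the MHCII-lo libraries and 5.69, 5.94 and 5.66 FPKM in the MHCII-hi libraries (log2 change -0.53, adjusted p = 4.93e-05 in limma). Aimp1 fell from 8.89 to 6.59 FPKM (-0.38, adjusted p = 1.15e-04), and Aimp2 rose from 7.42 to 8.76 FPKM (0.21, adjusted p = 0.00721). Among the 15 genes listed for other aminoacylation and editing steps 14 were tested, of which 9 were lower (64.3%, against 40.5% of all tested genes), 1 was higher and 4 did not pass. Aarsd1 (-0.71), an editing enzyme for mischarged alanine tRNA, and Prorsd1 (-0.70), a relative of bacterial proline editing domains, fell the most. Ptrh2, a peptidyl-tRNA hydrolase, followed (-0.67), while Secisbp2, which serves selenocysteine insertion, rose (0.20, adjusted p = 0.00710).

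The genes that make tRNA ready for charging followed the same direction. Of 30 listed genes for tRNA maturation and modification 27 were tested, 23 were lower (85.2%, against 40.5% of all tested genes), 0 were higher and 0 were higher at an unadjusted p under 0.05 in limma, with 1 higher once the length and GC trend was removed. Their median change was -0.32. The count of lower genes was 17 with the length and GC trend removed, 18 with equal totals, and 19 to 23 with a library left out. Clp1, a kinase of the tRNA splicing complex, fell from 9.14 to 5.74 FPKM (log2 change -0.59), and Tsen34, a subunit of the splicing endonuclease, from 5.78 to 3.48 FPKM (-0.60). Hsd17b10, a subunit of mitochondrial RNase P with other roles in metabolism, fell from 30.5 to 20.2 FPKM (-0.57). Xpot, the exporter of tRNA from the nucleus, had 19.56, 19.05 and 19.28 FPKM in the MHCII-lo libraries and 12.86, 12.88 and 12.79 FPKM in the MHCII-hi libraries (-0.55, adjusted p = 3.59e-06 in limma), with closely matched libraries in each group.

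The amino acid and integrated stress response list, which holds the kinases, ATF4 and genes known downstream, held genes that moved in both directions. Of 31 listed genes 26 were tested, 8 were higher, 12 lower and 6 did not pass, with a median change of -0.05. These shares, 46.2% lower and 30.8% higher, are near the 40.5% and 27.2% of all tested genes. The lower genes were Phgdh, Cebpg, Psat1, Asns, Slc7a5, Psph, Mthfd2, Atf5, Aldh18a1, Ppp1r15b, Slc7a1 and Eif2ak1, which include enzymes, transporters, transcription factors and a kinase. Phgdh, which opens serine synthesis, had 46.79, 47.35 and 47.12 FPKM in the MHCII-lo libraries and 28.32, 27.33 and 26.96 FPKM in the MHCII-hi libraries (log2 change -0.75, adjusted p = 8.51e-07 in limma). Asns had 15.45, 15.06 and 15.19 FPKM in the MHCII-lo libraries and 9.50, 9.40 and 9.39 FPKM in the MHCII-hi libraries (-0.64, adjusted p = 2.58e-06). Psat1, the next serine enzyme, fell from 28.7 to 17.7 FPKM (-0.67), and Cebpg, a transcription factor that pairs with ATF4, from 14.96 to 8.61 FPKM (-0.73).

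The higher genes were Ppp1r15a, Ddit4, Cebpb, Sesn2, Ddit3, Eif2ak3, Atf4 and the transporter subunit gene Slc3a2. Atf4 itself had 141.84, 142.83 and 143.53 FPKM in the MHCII-lo libraries and 167.42, 163.11 and 166.17 FPKM in the MHCII-hi libraries (log2 change 0.21, adjusted p = 3.59e-05 in limma). Ppp1r15a (GADD34), the phosphatase subunit that ends the stress response, had 64.29, 66.13 and 65.88 FPKM in the MHCII-lo libraries and 110.06, 112.01 and 110.30 FPKM in the MHCII-hi libraries (0.75, adjusted p = 2.70e-07). In both genes every MHCII-hi library was above every MHCII-lo library. Ddit4, an inhibitor of mTORC1, rose from 10.8 to 16.7 FPKM (0.59), Cebpb, a myeloid and stress transcription factor, by 0.58, and Sesn2, a leucine-binding inhibitor of mTORC1, from 4.30 to 6.42 FPKM (0.48). Eif2ak4, which encodes GCN2, was at 4.20 and 4.14 FPKM and did not pass (adjusted p = 0.781). ATF4 is controlled mainly through translation, so its transcript level does not report its activity. Slc7a11, whose promoter is printed above, was under the minimum, with 0.58 to 0.66 FPKM in the MHCII-lo libraries and 1.17 to 1.32 in the MHCII-hi libraries, and was not tested. The element TGATGNAAN occurred in 7 of 27 promoters of this list and in 0 of 22 of the tRNA maturation list. Trib3, Chac1 and Vldlr, which hold it, were also under the minimum. Their means were 0.21, 0.18 and 0.15 FPKM for MHCII-lo and 0.50, 0.41 and 0.44 FPKM for MHCII-hi. Nupr1 and Pycr1, which hold it too, did not pass. With no filter 10 of the 31 listed genes were higher and 12 lower, against 3902 and 4771 of 27715 genes. With the filter the all-gene calls were 3348 and 4982 of 12295, so the genes added without it were rarely called. The unfiltered background is therefore not a like comparison for this list, and the shares among the tested genes are.

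**Figure D4:**
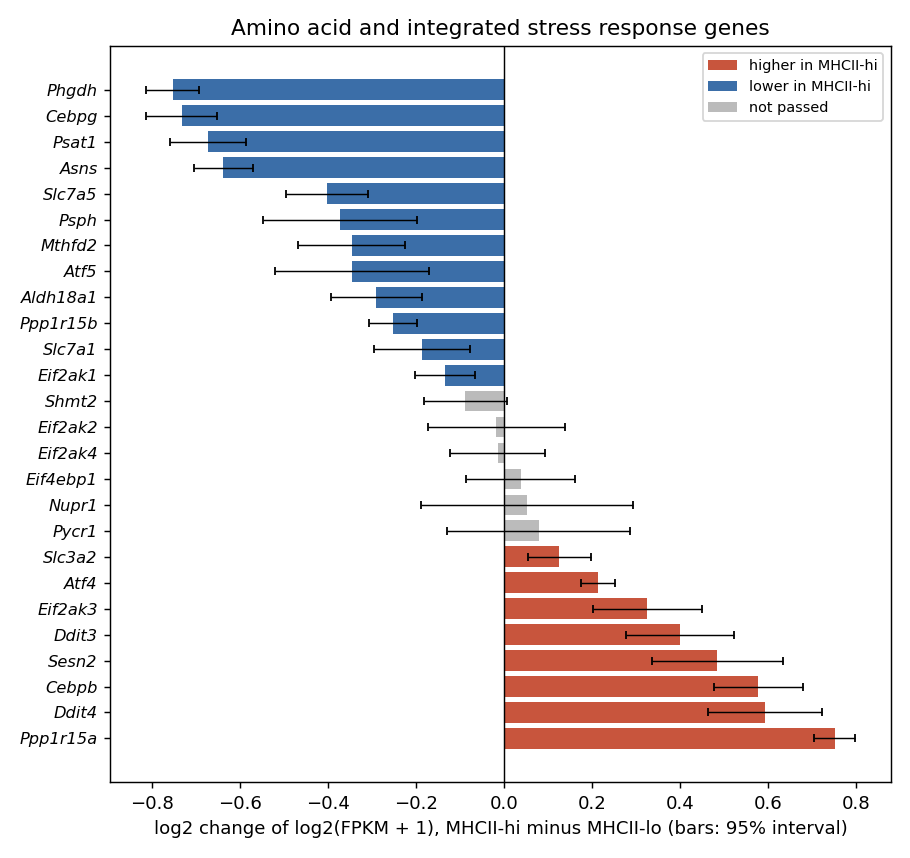
Log2 change of log2(FPKM + 1), MHCII-hi minus MHCII-lo, for the 26 tested genes of the amino acid and integrated stress response list, with 95% limma intervals. Blue bars are the 12 lower genes, led by Phgdh at -0.75, red bars the 8 higher genes, led by Ppp1r15a at 0.75, and grey bars the 6 that did not pass.

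Several features of the libraries moved with the groups. Within a group Pearson's r of log2(FPKM + 1) across genes was 0.990 to 0.994, and between groups 0.905 to 0.909. Immunoglobulin segments took 0.392% to 0.458% of the summed FPKM in MHCII-lo and 8.26% to 8.34% in MHCII-hi, and mitochondrially encoded transcripts 8.81% to 8.96% and 12.5%. Scaling each library to an equal total without these transcripts left 26 of the 36 genes lower and all-gene calls at 4235 lower and 3911 higher. All 8 B cell markers were higher in MHCII-hi, with a summed FPKM of 24.0 to 26.6 in the MHCII-lo libraries and 178.2 to 182.9 in the MHCII-hi libraries. All 8 plasma cell markers were higher (78.0 to 81.0, and 465.2 to 470.7), and all 8 erythroid markers lower (691.0 to 702.6, and 469.2 to 490.7). Of 8 markers of macrophages and dendritic cells 6 were higher and 2 lower (113.4 to 115.3, and 144.3 to 147.2). The summed FPKM of neutrophil markers was 15262 for MHCII-lo and 20680 for MHCII-hi (5 higher, 2 lower, 1 not passed), and that of T and NK cell markers 156.7 and 159.9 (6 higher, 2 lower). Of 12 HSC markers 9 were tested and 7 were higher (54.7 to 55.0, and 89.4 to 93.0), Kit stood at 10.9 FPKM in both groups, and Slamf1, Procr and Mecom were under 1 FPKM in both groups. No marker had a group mean of 0. The part of such cells in the synthetase result was not tested.

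Some members share sequence with neighbours, which can blur where fragments were counted. Aars overlaps Exosc6 on the same strand by 1326 bases, and Exosc6 averaged 1.16 FPKM for MHCII-lo and 0.133 for MHCII-hi. Iars shares 767 words of 31 bases with the pseudogene Gm4849, which was at 0.0467 and 0.0767 FPKM. Hars and Hars2 overlap by 198 bases on opposite strands and both fell. Iars2 overlaps Rab3gap2 and Cars2 overlaps Naxd, also on opposite strands. The sources used here do not say whether the counting used the strand.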

How the data were processed

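Stranded mRNA libraries were built from RNA of the sorted cells, per the labels' protocols. As tools fastp, HISAT2 and StringTie are named, and as builds GRCm38 and mm10, per the submitters' processing notes, without settings. The deposited files hold 1 value per gene and library with 2 decimals, taken here as FPKM normalized by the authors to library size and transcript length. The unit is inferred from the values, since the file headers do not name it. Read depth is unknown, so no counting interval is given, and immunoglobulin or mitochondrial transcripts that rise can lower other FPKM. The summed FPKM was not equal between groups, at 305934 to 306945 in the MHCII-lo libraries and 333347 to 333530 in the MHCII-hi libraries.

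MHCII-hi was compared with MHCII-lo on log2(FPKM + 1) in limma 3.58.1 under R 4.3.3 (two-sided, moderated variances with a trend on the mean). The fit took the 12295 genes averaging 1 FPKM or more, and p-values were adjusted over all of them by Benjamini-Hochberg, with a threshold of 0.05. The fit was tested on simulated data. Values are means ± SD unless SE is named.

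The members and lists were chosen with earlier results of these data known. The rule for values per library took the 8 largest changes per direction past the threshold, the 3 nearest to 0, and Lars2, Gars, Kars, Qars, Eprs and Wars. From each other list it took up to 4 genes per direction, with Atf4 and Asns. Genes named beyond it, such as Ddit3, Eif2ak4 and Slc7a11, were chosen after their values were seen. A gene and a sequence that the rule or the motif search gave are not reported here. Coordinates came from GENCODE M21 and promoters from RefSeq. Of 90 promoters looked up, 82 ended in a transcript of their own gene on the same strand and 0 on the reverse. Alternatives were pseudocounts of 0.1 and 0.01, no filter, a minimum of 5 FPKM, 3 other scalings, no variance trend, a length and GC correction, a replicate block, and leaving out each library in turn. Python 3.11.15, pandas 2.3.3, numpy 2.4.6 and matplotlib 3.10.9 were used.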

Additional observations from a re-analysis of the deposited data

How the results depend on the processing

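Over all alternatives 26 to 30 of the 36 synthetase genes were lower (27 to 30 with a library left out), and 25 were lower in every setting that tested them, 18 of them cytosolic. Sars2 was the 1 gene called higher with equal totals without immunoglobulin and mitochondrial transcripts (0.16, adjusted p = 0.0497) and with the length and GC trend removed (0.20, adjusted p = 0.0180). Cars and Iars lost the call with equal totals (adjusted p = 0.0780 and 0.0763), Cars also without MHCII-lo replicate 3 (0.0530) and Iars with quantile normalization (0.0523). Rars2 went to -0.02 with the length and GC trend removed. Fars2 lost the call in 6 settings and Mars2 in 7. The length and GC correction also moved Farsb to -0.24, Rars to -0.19, Aimp1 to -0.23, Eef1e1 to -0.33 and Prorsd1 to -0.38, equal totals moved Vars to -0.073 and Farsa to -0.14, and a pseudocount of 0.01 moved Mars2 to -0.35, with their calls kept. The cause was not tested. Near 0, Aars2 turned to -0.039 (quantile) and -0.013 (length and GC), Pars2 to -0.065 (quantile) and Vars2 to 0.031 (equal totals). With a library left out, Aars2 ranged from -0.023 to 0.086 (negative without MHCII-hi replicate 2 or 3), Pars2 from -0.033 to 0.11 (negative without MHCII-lo replicate 1 or MHCII-hi replicate 3) and Vars2 from -0.070 to 0.026 (positive without MHCII-lo replicate 3 or MHCII-hi replicate 1). With a minimum of 5 FPKM fewer genes were tested: 26 of 26 members were lower, 2 of 4 other aminoacylation genes and 14 of 16 maturation genes. The median change of the mitochondrial members moved to -0.38 there, over 6 genes. Of all 7491 genes tested at that minimum, 3701 were lower and 2210 were higher. A maturation gene, 1 in all, was higher with the length and GC trend removed. A ratio of at most 1/1.5 in place of 0.8 was met by 6 members. Deviations from the group means had r = 0.0626, 0.0019 and 0.0804 for same-numbered libraries. For libraries with different numbers r ran from -0.0949 to 0.0251. Values this small cannot decide whether the numbers pair the samples. With the replicate block 29 members were lower.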
